A study of Arabidopsis thaliana with 24 samples.

Results

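Gene expression in rosettes of Arabidopsis thaliana wild type Col-0 was compared between the middle of the day, ZT6, and the middle of the night, ZT18. ZT counts hours after lights on. Both groups were cut from 3 week old soil-grown plants under a 12 h photoperiod, had no treatment, and consisted of 3 libraries each, with 6 pooled rosettes per library. These 6 libraries are all the Col-0 libraries of the study labelled ZT6 or ZT18, and 6 of its 24. The other 18 libraries cover Col-0 at ZT0 and ZT12 and the line jaz4-1, labelled a knock-out of the jasmonate repressor gene JAZ4, at all 4 times. The labels call the 3 libraries of a group biological replicates. All values below are rescaled reads, that is, whole reads per gene recovered from the deposited values and divided by 1 size factor per library computed over all 24 libraries. A gene was called at a Benjamini-Hochberg adjusted p under 0.05 from limma, and errors of log2 fold changes are standard errors.

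Plants anticipate day and night with a circadian clock made of repressors that act on each other in sequence. The morning MYB factors CCA1 and LHY repress genes of the evening, the PRR proteins follow each other through the day and repress CCA1 and LHY, and the evening complex of ELF3, ELF4 and LUX represses PRR9 at night. In leaves the clock and light together set the daily rhythm of genes for light harvesting, starch turnover, nitrogen assimilation, cold acclimation and growth. ZT6 and ZT18 lie on opposite sides of that cycle, each 6 h from a change of light.

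The Col-0 libraries held 18172176 to 22551218 reads at ZT6 and 18224738 to 21819281 at ZT18, with 20966 to 21863 and 20624 to 21461 genes detected. Chloroplast genes took 0.0341% ± 0.00380 of reads at ZT6 and 0.0512% ± 0.00798 at ZT18 (SD, n = 3 each), a separation with an exact permutation p of 0.1, 2-sided, the smallest that 3 against 3 libraries allow. No chloroplast gene of 93 tested and no mitochondrial gene of 28 was called, with median log2 fold changes of -0.48 and -0.26. The spread used for these calls also came from libraries outside the contrast with far larger chloroplast shares. These were Col-0 ZT0 replicate 2 (0.365%), Col-0 ZT12 replicate 3 (0.386%), jaz4-1 ZT0 replicate 3 (0.484%) and jaz4-1 ZT6 replicate 1 (0.316%). The lack of calls therefore does not show equal levels. Libraries of the same time were not equally close: at ZT6, replicates 1 and 2 differed by a chi-square of 6.89 per gene, and replicate 3 differed from them by 26.2 and 29.8. At ZT18, replicates 2 and 3 differed by 8.81, and replicate 1 differed from them by 29.1 and 48.3. The chi-square was taken on whole reads scaled by library totals, not on rescaled reads. By this measure replicate 3 at ZT6 and replicate 1 at ZT18 stood apart, and how far the scaling adds to that was not tested. Calls lost without a library are given with that library and the highest adjusted p among such fits. Leaf genes were present in all 6 libraries: the 7 leaf markers summed to 884244 to 1211650 rescaled reads at ZT6 and 645793 to 1067820 at ZT18. The 9 root markers in the table summed to 801 to 898 and 984 to 1160 rescaled reads, mostly SCR and SHR, which are also expressed in shoots, and the root iron transporter gene IRT1 had no read. The 9 floral markers in the table summed to 18 to 45.7 and 32.6 to 63.2, and AP1 had no read. Since the RNA is from whole rosettes, fewer cells of a type and less RNA per cell cannot be told apart.

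Of 19614 genes tested, 22.5% differed between midday and midnight: 2157 were higher at ZT6 (11.0%) and 2253 were lower (11.5%). These shares over all genes are the background for each count of list or family members below. The larger differences were mostly toward midday. A rise of at least 1 log2 unit was called for 1037 genes (5.29%) and a fall of at least that size for 561 (2.86%). The median log2 fold change was 0.97 among genes called higher, -0.71 among genes called lower and 0.00 over all genes tested. The 3 libraries of ZT6 and the 3 of ZT18 did not overlap for 44.3% of genes. Without replicate 1 at ZT18, 1476 genes were called higher and 1369 lower. The split between the directions depended on the scaling: 48.9% of calls were higher at ZT6 here and 47.6% with TMM factors. With total reads it was 24.8%, where the median gene lay at -0.16, and with the deposited scaling, which was set separately at each time, it was 22.5%, where the median gene lay at -0.21.

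**Figure D1:**
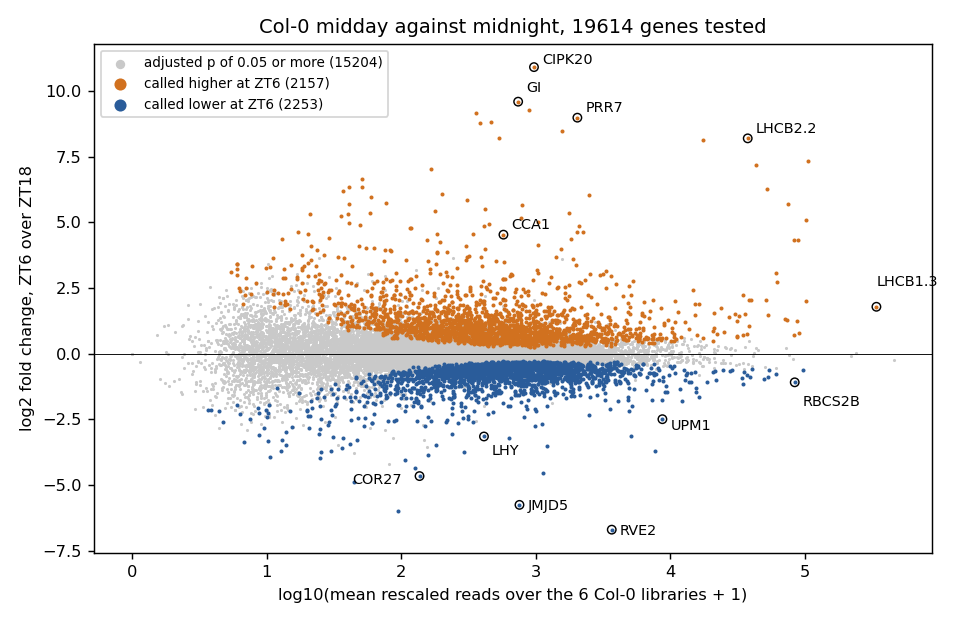
Log2 fold change of ZT6 over ZT18 against the log10 of the mean rescaled reads over the 6 Col-0 libraries, 1 point per gene tested, coloured by call. The 2157 higher genes reach above 10 log2 units (CIPK20) while the lowest of the 2253 lower genes, RVE2, lies at -6.69.

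Genes of the clock's morning arm stood on both sides. Of 11 MYB and LNK genes tested, 6 were higher at midday and 4 lower, against 11.0% and 11.5% of all genes. The 4 LNK genes, coactivators that work with RVE8, were all higher. LNK1 (AT5G64170) had 1898, 1898 and 1555 rescaled reads at ZT6 and 3.62, 1.74 and 0.902 at ZT18 (log2 fold change 9.26 ± 0.33, adjusted p = 1.45e-15), and its annotation overlaps AT5G64160. LNK4 (AT5G06980) had 903, 901 and 964 rescaled reads at ZT6 and 0, 0.872 and 3.61 at ZT18 (log2 fold change 8.81 ± 0.35, adjusted p = 1.24e-14). LNK2 and LNK3 followed with log2 fold changes of 4.86 and 5.84. Each midnight library held at most a few reads of LNK1 and LNK4, and the groups lay far apart. LNK2, LNK3 and LNK4 overlap other annotated genes as well.

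The paired MYB genes CCA1 and LHY moved in opposite directions between these times. CCA1 (AT2G46830) had 1163, 1099.7 and 1035 rescaled reads at ZT6 and 39, 40.1 and 64.1 at ZT18 (log2 fold change 4.53 ± 0.44, adjusted p = 3.63e-07). LHY (AT1G01060) had 86.6, 66.2 and 97 rescaled reads at ZT6 and 673, 739 and 802 at ZT18 (log2 fold change -3.15 ± 0.21, adjusted p = 1.78e-10). Both were highest at dawn. Over the 4 times CCA1 had 14848 ± 1867 at ZT0, 1099 ± 64.2 at ZT6, 12.4 ± 7.87 at ZT12 and 47.7 ± 14.2 at ZT18 rescaled reads (SD, n = 3), and LHY had 29789.5 ± 5112 at ZT0, 83.3 ± 15.7 at ZT6, 10.4 ± 3.91 at ZT12 and 738 ± 64.5 at ZT18. LHY at midnight was already above its midday level in every library, whereas CCA1 at midnight was still below its midday level in every library. The pair of directions was the same in jaz4-1, with log2 fold changes of 4.07 and -3.39.

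Of the related MYB genes RVE2, RVE4 and RVE8 were lower at midday. RVE2 (AT5G37260), also a morning MYB gene, had the largest fall of all called genes, from 9739, 6582 and 5441 rescaled reads at ZT18 to 52.9, 53.7 and 106 at ZT6 (log2 fold change -6.69 ± 0.24, adjusted p = 8.42e-15). RVE8 (-1.69), an activator of evening genes, and its close relative RVE4 (-1.34) were lower too. RVE6 was higher (1.0), and RVE1, which links the clock to auxin synthesis, was not called (log2 fold change -0.54 ± 0.21, adjusted p = 0.076).

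Among 14 day-phase and evening clock genes, 5 were higher and 5 lower. The higher ones included the 3 with the largest changes. GI (AT1G22770), an evening scaffold protein gene, had 1423, 1647 and 1353 rescaled reads at ZT6 and 0, 2.62 and 0.902 at ZT18 (log2 fold change 9.59 ± 0.73, adjusted p = 7.28e-09). PRR9 (AT2G46790) had 719.9, 743 and 673 rescaled reads at ZT6 and 0, 0 and 0.902 at ZT18 (log2 fold change 9.17 ± 0.70, adjusted p = 2.18e-09). With 1 read at ZT18 in all, its ratio was 2383, with a 95% counting interval of 427 to 94164. PRR7 (AT5G02810) had 4024, 4066 and 4091 rescaled reads at ZT6 and 5.44, 6.97 and 9.02 at ZT18 (log2 fold change 8.99 ± 0.49, adjusted p = 5.52e-11). These 3 genes were near silent at midnight in every library. PRR9 was highest at midday, with 9.59 ± 4.73 at ZT0, 712 ± 35.3 at ZT6, 1.77 ± 3.06 at ZT12 and 0.301 ± 0.521 at ZT18 rescaled reads (SD, n = 3). GI was high at midday and at dusk, with 3.39 ± 3.77 at ZT0, 1474 ± 153 at ZT6, 1301 ± 73.2 at ZT12 and 1.17 ± 1.33 at ZT18. PRR7 was highest at midday and still present at dusk, with 111 ± 43.1 at ZT0, 4060.3 ± 34.2 at ZT6, 779.7 ± 87.3 at ZT12 and 7.14 ± 1.8 at ZT18.

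Genes later in the sequence differed less or the other way. PRR5 missed the threshold, with 395, 425 and 599 rescaled reads at ZT6 and 209, 210.1 and 221 at ZT18 (log2 fold change 1.12 ± 0.41, adjusted p = 0.053). The PRR5 libraries did not overlap, as was so for 44.3% of all genes. PRR5 was called with edgeR, DESeq2, limma-voom and in the fit of only the 6 libraries. It was not called with TMM, total-read or deposited scaling or without any 1 of the 6 libraries. TOC1 (AT5G61380), the evening member of the PRR family, had 429, 500.0 and 545 rescaled reads at ZT6 and 996, 1136 and 1058 at ZT18 (log2 fold change -1.12 ± 0.13, adjusted p = 1.99e-06). Its highest level was at dusk, with 373 ± 63.1 at ZT0, 491 ± 58.9 at ZT6, 3132 ± 299 at ZT12 and 1063 ± 70.3 at ZT18 (SD, n = 3). The 3 parts of the evening complex did not share a direction: LUX was higher at midday (log2 fold change 0.82 ± 0.16, adjusted p = 5.44e-04), ELF3 lower (log2 fold change -1.39 ± 0.13, adjusted p = 3.31e-08) and ELF4 lower (log2 fold change -1.46 ± 0.46, adjusted p = 0.025). ELF4 had 51.7, 80.6 and 80.7 rescaled reads at ZT6 and 217, 179 and 184 at ZT18, and its call was lost without ZT6 replicate 1 or ZT18 replicates 1 or 2 (adjusted p up to 0.10). BOA (AT5G59570), a close relative of LUX, fell from 328, 191 and 201 rescaled reads at ZT18 to 6.75, 7.68 and 22 at ZT6 (log2 fold change -4.34 ± 0.40, adjusted p = 4.51e-08). CHE (1.31), a repressor of CCA1, was higher, and the photoreceptor F-box gene FKF1 lower (log2 fold change -0.89 ± 0.28, adjusted p = 0.023), a call lost without ZT6 replicates 1 or 2 or ZT18 replicate 1 (adjusted p up to 0.17). Without replicate 1 at ZT18, 3 of the 14 were called lower. PRR3 (-0.37), ZTL (-0.16) and LKP2 (-0.29) were not called. JMJD5 (AT3G20810), a jumonji-domain gene known to work with the clock, fell from 1577, 1500.3 and 1368 to 22.5, 21.1 and 39.1 (log2 fold change -5.75 ± 0.28, adjusted p = 1.65e-12), and its dusk level of 4072 was the highest of the day. LUX also had its highest mean at dusk, 1604 rescaled reads.

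**Figure D2:**
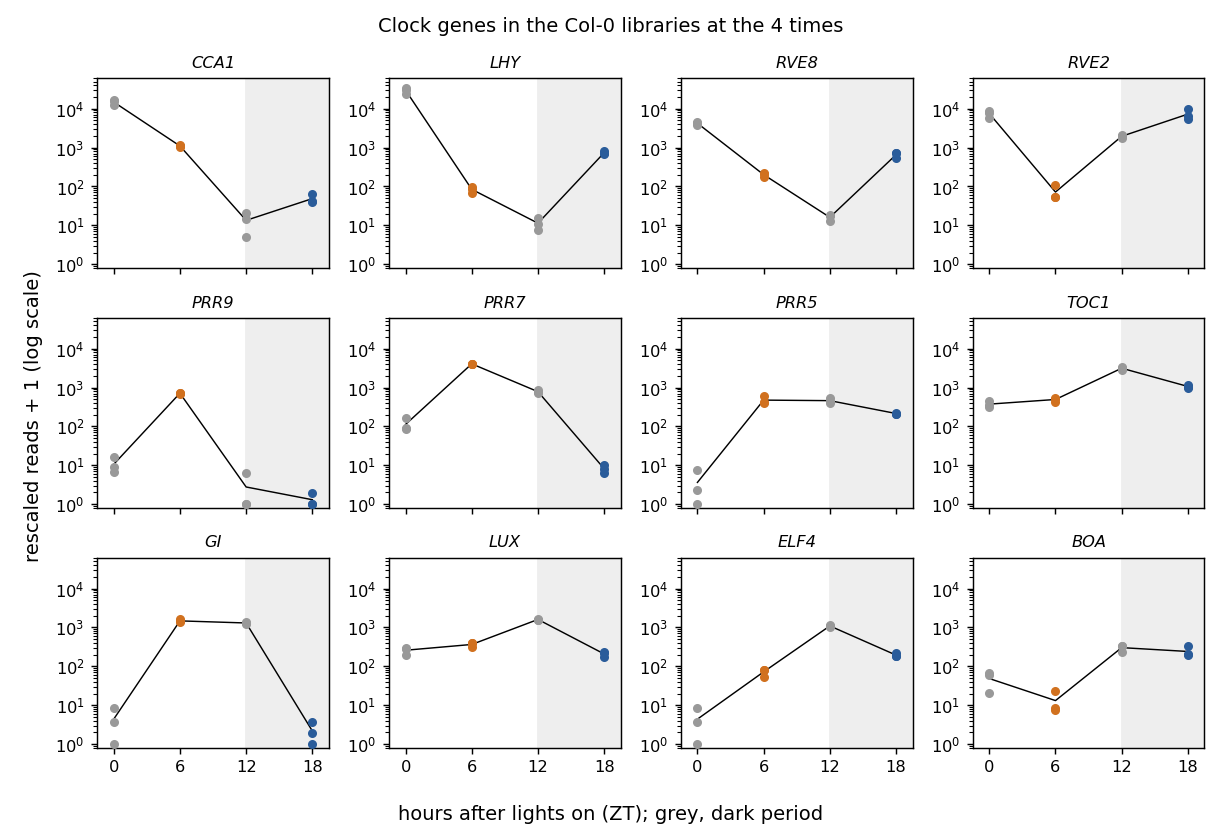
Rescaled reads plus 1 (log axis) of 12 clock genes in each Col-0 library at ZT0, ZT6, ZT12 and ZT18, with lines through the means of 3 libraries and grey shading for the dark period. CCA1 and LHY are highest at ZT0, but CCA1 is higher at ZT6 (orange) than at ZT18 (blue) and LHY is lower, and PRR9, PRR7 and GI fall to near 0 reads at ZT18.

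The PIF genes, whose products act between light and growth, were higher at midday or not called. PIF4 (AT2G43010), a growth-promoting bHLH factor destroyed by active phytochrome B, had 3145, 3228 and 2989.9 rescaled reads at ZT6 and 12.7, 7.85 and 4.51 at ZT18 (log2 fold change 8.48 ± 0.44, adjusted p = 2.01e-11). PIF5 had 2883, 3002 and 2758 rescaled reads at ZT6 and 217, 187 and 151 at ZT18 (log2 fold change 3.97 ± 0.16, adjusted p = 8.47e-15). Of 11 PIF genes and their partners 7 were higher and 0 lower, PIF7 (1.89) and PIF1 (0.75) among them. PIF3 (0.31), PIL1 (-1.17), ATHB2 (0.52) and HAT2 (0.18), the last 3 known shade markers, were not called.

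B-box factors and light regulators split 9 higher to 6 lower of 24. BBX28 (AT4G27310) had 1268, 994 and 923 rescaled reads at ZT6 and 7.25, 0.872 and 1.8 at ZT18 (log2 fold change 8.23 ± 0.42, adjusted p = 1.70e-12). BBX24 had 3497, 3552 and 3298 rescaled reads at ZT6 and 87.9, 76.7 and 85.7 at ZT18 (log2 fold change 5.35 ± 0.13, adjusted p = 1.25e-18), and BBX18 rose as well (2.94). BBX16 (AT1G73870), not in the list, went from 0.906, 0 and 1.8 at ZT18 to 775, 859.8 and 667 at ZT6 (log2 fold change 8.77 ± 0.59, adjusted p = 4.97e-10). Its 3 reads at midnight give a ratio of 852 with a 95% counting interval of 291 to 4135. The positive photomorphogenesis factors HY5 and HYH, in contrast, were lower at midday. HY5 had 112, 99.8 and 119.9 rescaled reads at ZT6 and 410.4, 432 and 491 at ZT18 (log2 fold change -1.99 ± 0.16, adjusted p = 4.96e-09), HYH changed by -2.2, and BBX20, a cofactor of HY5, had 12.4, 4.8 and 22 rescaled reads at ZT6 and 198, 179.6 and 213 at ZT18 (log2 fold change -4.03 ± 0.74, adjusted p = 4.26e-04). COP1, which targets HY5 for breakdown in the dark, was lower too (log2 fold change -0.48 ± 0.12, adjusted p = 0.0048). Of 11 photoreceptor genes, PHOT1 was higher (0.51, lost without ZT6 replicate 2 (adjusted p = 0.053)) and CRY3 lower (-0.60), and PHYA (-0.00), PHYB (-0.17) and CRY1 (0.35) were not called.

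Genes of the photoperiod pathway were on both sides. The CDF repressors of flowering were higher at midday, CDF3 with 1737, 1641 and 1141 rescaled reads at ZT6 and 22.6, 54 and 53.2 at ZT18 (log2 fold change 5.16 ± 0.29, adjusted p = 3.84e-11), CDF1 with 4.0 and CDF2 with 2.09 log2 units. CO, which they repress, was lower, with 9.0, 2.88 and 9.78 rescaled reads at ZT6 and 47.1, 47.1 and 48.7 at ZT18 (log2 fold change -2.7 ± 0.65, adjusted p = 0.0042). COL9 (AT3G07650), a B-box relative of CO, fell from 2757, 1934 and 1859 to 78.7, 90.2 and 105 (log2 fold change -4.55 ± 0.16, adjusted p = 8.35e-16). Of 10 flowering genes tested, 6 were higher and 1 lower. TEM2 (1.82), SVP (0.80) and SOC1 (0.91) were among the higher ones, and FLC was not called (0.07).

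Light-harvesting genes, whose proteins bind the chlorophyll of the antennae, were among the widest differences. Of 20 antenna genes tested, 16 were higher at midday and 2 lower, with a median log2 fold change of 2.9 beside 0.00 over all genes. LHCB2.2 (AT2G05070), a protein of the mobile photosystem II antenna, had 83704, 82423 and 58141 rescaled reads at ZT6 and 208, 308 and 244 at ZT18 (log2 fold change 8.2 ± 0.20, adjusted p = 1.25e-18). LHCB2.3 had 35559, 39493 and 29439.9 rescaled reads at ZT6 and 102, 143 and 128 at ZT18 (log2 fold change 8.12 ± 0.17, adjusted p = 7.76e-20), and LHCB2.1 changed by 7.19. LHCB3 had 150395, 164980 and 123991 rescaled reads at ZT6 and 2874, 2840.1 and 2766 at ZT18 (log2 fold change 5.68 ± 0.17, adjusted p = 8.11e-17). LHCA4 of the photosystem I antenna had 188071, 182976 and 137618 rescaled reads at ZT6 and 9624, 8213 and 7156 at ZT18 (log2 fold change 4.34 ± 0.17, adjusted p = 1.07e-14). The groups did not overlap for any of these genes, but LHCB2.1, LHCB2.2 and LHCB2.3 were named by a rule that required this. For each of these genes replicate 3 was the lowest of the ZT6 libraries. The LHCB1 copies ranged from 7.33 (LHCB1.1) over 6.25 (LHCB1.4) and 5.09 (LHCB1.2) to 1.79 (LHCB1.3). These are near-identical neighbours in part, so the split of reads among them is uncertain. Per kilobase of exon, LHCB1.3 was the most abundant of all called genes. The exceptions were LHCB4.3, which fell from 5483, 4118 and 2815 to 726, 947 and 737 (log2 fold change -2.32 ± 0.24, adjusted p = 3.64e-07), and LHCA5, a minor photosystem I antenna gene (log2 fold change -0.55 ± 0.17, adjusted p = 0.022), whose call was lost without ZT6 replicates 1 or 2 or ZT18 replicate 1 (adjusted p up to 0.15). LHCA6 (-0.22) and LHCB7 (-0.06) were not called.

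Core photosystem and electron transport genes changed less and in 1 direction: 22 of 28 were higher and 0 lower, with a median of 1.02. The largest rises were in photosystem I subunit genes. PSAD-2 had 27448, 28680.5 and 18833 rescaled reads at ZT6 and 5059.9, 4979 and 3733 at ZT18 (log2 fold change 2.43 ± 0.19, adjusted p = 2.18e-09). PSAF (2.04), PSAO (2.04) and PSAH-2 (1.89) followed. The 6 genes not called were PSBQ-1 (0.04) of the oxygen-evolving complex and the carriers PETC (-0.35), PETE2 (0.22), FD2 (0.16), FNR1 (-0.33) and FNR2 (0.06), the Rieske protein, plastocyanin, ferredoxin and its reductases. PETE1, the less abundant plastocyanin gene, was higher (0.59). PSBR, among the 5 most abundant risers, was called (log2 fold change 0.73 ± 0.23, adjusted p = 0.024), a call lost without ZT6 replicates 1 or 3 or ZT18 replicates 2 or 3 (adjusted p up to 0.11). With total-read and with deposited scaling, 2 genes of this list were called lower, and 22 and 18 higher.

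Genes for chlorophyll and for carotenoids differed in their counts. Of 17 chlorophyll synthesis genes, 9 were higher and 0 lower. CAO, which makes chlorophyll b, had 7519.9, 7063 and 5923 rescaled reads at ZT6 and 1046, 1138 and 1018 at ZT18 (log2 fold change 2.67 ± 0.13, adjusted p = 1.22e-12). GUN5, the magnesium chelatase subunit, rose by 2.03, HEMA1, the entry to tetrapyrrole synthesis, by 1.61 and CRD1 by 1.26. GUN4 was called from few reads (log2 fold change 1.89 ± 0.65, adjusted p = 0.039), a call lost without ZT6 replicates 1, 2 or 3 or ZT18 replicates 1 or 3 (adjusted p up to 0.16). With total-read scaling 7 of the 17 were higher and 2 lower, and with deposited scaling 8 and 2. Carotenoid genes split, 3 higher and 5 lower of 13. Without ZT6 replicates 1 or 3 or ZT18 replicate 1, 3 were called lower, and with total-read and deposited scaling 8 and 7. BCH2 (log2 fold change 4.55 ± 0.60, adjusted p = 1.31e-05) and BCH1 (log2 fold change -1.62 ± 0.18, adjusted p = 8.10e-07), both beta-carotene hydroxylases, changed in opposite directions. BCH2 went from 25.4, 12.2 and 9.02 at ZT18 to 362, 344 and 353 at ZT6 and BCH1 from 3461, 2656 and 2211 to 1061, 882 and 748, with no overlap in either gene. ABA1, the epoxidase of the xanthophyll cycle, was higher (2.58), as was the cleavage enzyme gene CCD4 (3.04), and PSY, the entry enzyme, was lower (-0.78).

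Carbon fixation genes were not higher at midday as light-harvesting genes were. Of 17 Calvin-Benson genes none was higher and 5 were lower, beside 11.0% and 11.5% of all genes, with a median of -0.23. RBCS2B, a Rubisco small subunit, had 53942, 52487 and 50947 rescaled reads at ZT6 and 156187, 106472 and 82838 at ZT18 (log2 fold change -1.09 ± 0.22, adjusted p = 9.92e-04). GAPA had 38508, 41537 and 31320.1 rescaled reads at ZT6 and 85228, 64981 and 57538 at ZT18 (log2 fold change -0.89 ± 0.18, adjusted p = 0.0010). The regulator CP12-2 (-1.44) was also lower. SBPASE (-0.63) was lower, a call lost without ZT6 replicate 3 or ZT18 replicate 1 (adjusted p up to 0.10), and PGK1 (-0.58), a call lost without ZT6 replicates 1 or 3 or ZT18 replicate 1 (adjusted p up to 0.23). The major Rubisco small subunit gene RBCS1A overlapped between the times, with 431152, 466706 and 352522 rescaled reads at ZT6 and 650979, 455109 and 385404 at ZT18 (log2 fold change -0.23 ± 0.21, adjusted p = 0.49), as did Rubisco activase, RCA (log2 fold change 0.04 ± 0.22, adjusted p = 0.93). Replicate 1 at ZT18 held the highest ZT18 value of each of these genes. Without it 3 of the list were called lower, and without other single libraries up to 7. With total-read scaling 9 were called lower and with deposited scaling 8.

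Photorespiration genes, which recycle the product of Rubisco's oxygenation, followed the Calvin-Benson genes. Of 15, 6 were lower and none higher, beside 11.5% and 11.0% of all genes, with a median of -0.52. GOX1, glycolate oxidase, had 25450.5, 24732 and 19869 rescaled reads at ZT6 and 60416, 39600.5 and 35726 at ZT18 (log2 fold change -0.92 ± 0.20, adjusted p = 0.0016). GOX2 (-1.01), GGT1 (-0.95), GLU1 (-0.88), GLDP2 (-0.80) and GLN2 (-0.60) completed the 6, the GLN2 call being lost without ZT6 replicate 3 or ZT18 replicate 1 (adjusted p up to 0.12). With total-read and with deposited scaling 12 were called lower. GOX1 and GOX2 are similar neighbours that may share reads. Carbonic anhydrase CA1 (log2 fold change -0.61 ± 0.21, adjusted p = 0.036) and OEP6, an outer envelope protein gene (log2 fold change -1.44 ± 0.24, adjusted p = 1.26e-04), were the other abundant genes called lower, and the CA1 call was lost without ZT6 replicates 1, 2 or 3 or ZT18 replicates 1 or 2 (adjusted p up to 0.23).

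**Figure D3:**
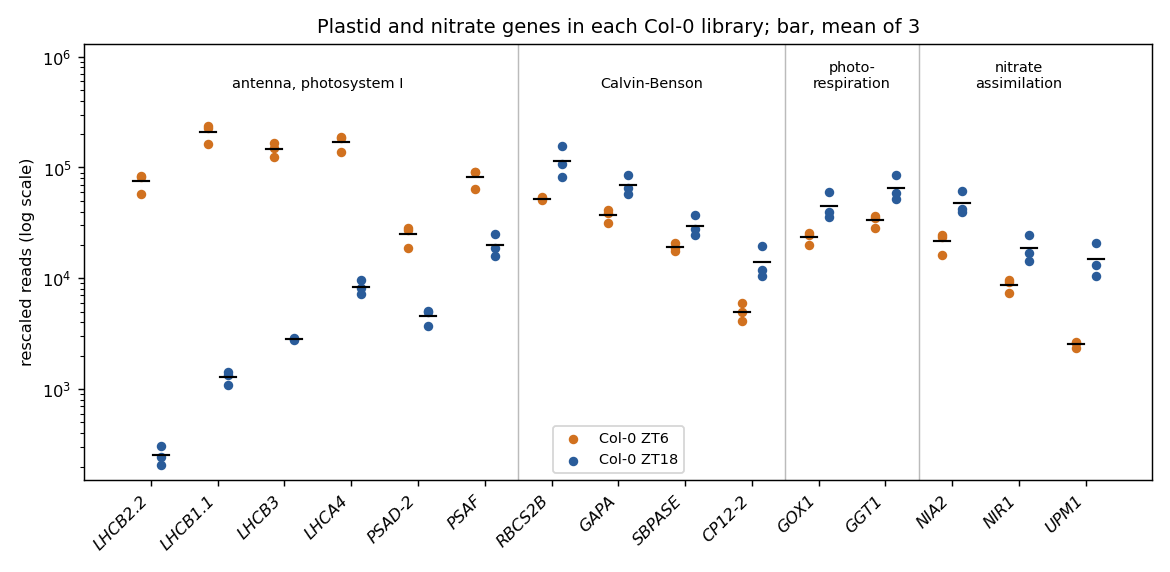
Rescaled reads (log axis) of 15 genes in each of the 6 Col-0 libraries, orange for ZT6 and blue for ZT18, with a bar at each mean of 3. All 15 were picked from called genes. The antenna and photosystem I genes shown are higher at ZT6, and the Calvin-Benson, photorespiration and nitrate assimilation genes shown are higher at ZT18. None of the 15 overlaps between the times. In the full lists, 12 of 17 Calvin-Benson, 9 of 15 photorespiration and 4 of 11 nitrate genes were not called.

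Starch breakdown genes were higher at midday more often than starch synthesis genes were, with 10 of 17 and 4 of 16, a difference that was not tested. Of 17 starch breakdown genes, 10 were higher and 2 lower, beside 11.0% and 11.5% of all genes. AMY3, a plastid alpha-amylase, had 4305, 4858 and 4331 rescaled reads at ZT6 and 747, 524 and 431 at ZT18 (log2 fold change 3.02 ± 0.18, adjusted p = 3.37e-11). PHS1, a glucan phosphorylase, changed by 1.8, DPE2, which handles maltose in the cytosol, by 1.39, and GWD1, which phosphorylates starch to start its breakdown, by 0.99. The exceptions were BAM3, the main maltose-forming beta-amylase, with 4179, 4015 and 3459.5 rescaled reads at ZT6 and 17822, 11676 and 10874 at ZT18 (log2 fold change -1.76 ± 0.21, adjusted p = 1.71e-06), and PWD (-0.74), the second glucan phosphorylating enzyme. At dusk AMY3 had a mean of 5494 and GWD1 of 11296 rescaled reads. Of 16 starch synthesis genes, GBSS1 (log2 fold change 2.96 ± 0.53, adjusted p = 5.26e-04), SS1 (1.36), SBE2.2 (0.68) and ISA2 (0.67) were higher and SS4 was lower (-0.52), a call lost without ZT6 replicates 1 or 3 or ZT18 replicate 1 (adjusted p up to 0.14). GBSS1, which makes amylose, was far higher at dawn than at either time, with 10334 ± 1691 at ZT0, 1146 ± 160.0 at ZT6, 197 ± 237 at ZT12 and 145 ± 3.3 at ZT18 rescaled reads (SD, n = 3).

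Sugar transport and signalling genes changed singly. The phloem loading transporter gene SWEET12 had 68.6, 42.2 and 70.9 rescaled reads at ZT6 and 448, 299.9 and 356 at ZT18 (log2 fold change -2.6 ± 0.30, adjusted p = 1.15e-06), while the vacuolar transporters SWEET16 (2.13) and SWEET17 (1.14) were higher at midday. The sucrose phosphate synthase SPS1F was lower (-0.73), a call lost without ZT18 replicate 1 (adjusted p = 0.051), and SPS4F (-1.09), a call lost without ZT6 replicate 3 or ZT18 replicate 1 (adjusted p up to 0.067). Among trehalose-phosphate synthases, TPS8 (1.7) and TPS11 (1.62) were higher and TPS9 (-0.74, lost without ZT6 replicates 1 or 3 or ZT18 replicate 1 (adjusted p up to 0.092)) and TPS10 (-0.86, lost without ZT6 replicates 1 or 2 or ZT18 replicate 1 (adjusted p up to 0.090)) lower. Of 12 dark-inducible genes 2 were lower at midday, BT2, with 637, 991 and 1583 rescaled reads at ZT6 and 12059.5, 8382 and 6699 at ZT18 (log2 fold change -3.13 ± 0.29, adjusted p = 7.49e-08), and AKINBETA1 (-0.50, lost without ZT6 replicate 3 or ZT18 replicates 1 or 2 (adjusted p up to 0.17)), and 2 were higher, DIN1 (2.81) and AT3G15450 (1.9).

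Nitrate uptake and assimilation had the lowest median of the lists, -1.15, with 7 of 11 genes lower and 0 higher. UPM1, which makes the siroheme of nitrite reductase, had 2614, 2664 and 2353 rescaled reads at ZT6 and 20995, 13216 and 10446 at ZT18 (log2 fold change -2.49 ± 0.21, adjusted p = 9.11e-09). NIA2, the major nitrate reductase, had 23572, 24729 and 16271 rescaled reads at ZT6 and 61478, 42229.6 and 39925 at ZT18 (log2 fold change -1.15 ± 0.28, adjusted p = 0.0044), and NIR1, nitrite reductase, changed by -1.06. The transceptor NRT1.1 (-1.43), G6PD3 (-1.48), ASN2 (-1.75) and GLT1 (-1.04) were lower too. NIA1 (log2 fold change -1.01 ± 0.45, adjusted p = 0.12) and NRT2.1 (log2 fold change -1.83 ± 0.99, adjusted p = 0.20) did not pass. Their libraries did not overlap, as was so for 44.3% of all genes. NLP7 (-0.00) and GLN1-1 (-0.42) were not called. Sulfate genes were mixed, 2 of 12 higher (ATPS3 0.84, APR1 0.67) and 3 lower, SULTR4;2 (-0.92) and GSH1 (-0.43) among them. Without replicate 1 at ZT18, 2 sulfate genes were called lower.

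Aliphatic glucosinolate genes, which build the sulfur-rich defence compounds of this plant from methionine, were higher at midday almost throughout: 14 of 16, with 1 lower and a median of 1.95. CYP79F1, the first enzyme of core synthesis, had 5093, 7505 and 4959 rescaled reads at ZT6 and 321, 884 and 988 at ZT18 (log2 fold change 3.13 ± 0.39, adjusted p = 7.47e-06). SOT17 had 807, 1054 and 874 rescaled reads at ZT6 and 149, 215 and 305 at ZT18 (log2 fold change 2.08 ± 0.26, adjusted p = 3.81e-06). FMOGS-OX1 (2.06), CYP83A1 (1.5) and MAM1 (2.24) also rose. Their MYB regulators did not move together: MYB76 (log2 fold change 3.93 ± 0.45, adjusted p = 8.10e-07) and MYB29 (log2 fold change 1.84 ± 0.23, adjusted p = 4.64e-06) were higher and MYB28 was lower (log2 fold change -0.43 ± 0.15, adjusted p = 0.037), a call lost without ZT6 replicates 1 or 3 or ZT18 replicates 1, 2 or 3 (adjusted p up to 0.14). MAM3 was not called (0.88). Of 9 indole glucosinolate genes, SOT16 (1.64), SUR1 (1.27), CYP83B1 (1.03) and UGT74B1 (0.92) were higher and 0 lower. IGMT2 (log2 fold change -3.58 ± 0.89, adjusted p = 0.0052) and IGMT3 (log2 fold change -3.71 ± 0.98, adjusted p = 0.0081), methyltransferases that modify indole glucosinolates, were lower at midday from low levels. IGMT2 had 5.62, 2.88 and 3.26 rescaled reads at ZT6 and 55.3, 115 and 28 at ZT18. They are neighbouring copies, so reads may be shared.

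Phenylpropanoids and flavonols went the other way. Of 8 genes at the entry to phenylpropanoids, 5 were lower and 0 higher, including 4CL3 (log2 fold change -1.98 ± 0.21, adjusted p = 3.05e-07), PAL1 (-1.22, lost without ZT6 replicate 3 (adjusted p = 0.073)), PAL4 (-1.12, lost without ZT6 replicates 1, 2 or 3 or ZT18 replicates 2 or 3 (adjusted p up to 0.16)) and C4H (-0.73). Without single libraries 2 to 4 were called. In the flavonoid list, the flavonol activator MYB111 had 24.7, 27.8 and 35.1 rescaled reads at ZT6 and 383, 346 and 264 at ZT18 (log2 fold change -3.46 ± 0.62, adjusted p = 3.85e-04). Its targets CHS (log2 fold change -2.0 ± 0.45, adjusted p = 0.0030), CHI (-0.99) and FLS1 (log2 fold change -2.75 ± 0.23, adjusted p = 1.71e-08) were lower as well. FLS1, flavonol synthase, had 234, 231 and 298 rescaled reads at ZT6 and 1376, 1961 and 1825 at ZT18. The repressor gene MYBL2 was higher, with 2257, 1947 and 1821 rescaled reads at ZT6 and 49.8, 46.2 and 98.4 at ZT18 (log2 fold change 5.01 ± 0.36, adjusted p = 1.87e-09). DFR, of the anthocyanin branch, was not called (log2 fold change 0.18 ± 0.88, adjusted p = 0.91).

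Cold-response genes were mostly higher at midday in these plants, which grew in a chamber held at 1 temperature per the labels. Of 12 genes, 7 were higher and 2 lower, with a median of 3.08. The CBF factors switch on cold acclimation. CBF3 had 55.1, 94 and 83.2 rescaled reads at ZT6 and 2.72, 0 and 0.902 at ZT18 (log2 fold change 5.32 ± 0.58, adjusted p = 4.91e-07) and CBF2 had 96.7, 183 and 169.6 rescaled reads at ZT6 and 0, 2.62 and 4.51 at ZT18 (log2 fold change 5.74 ± 0.70, adjusted p = 2.39e-06), while CBF1 stayed under the threshold (log2 fold change 1.99 ± 0.84, adjusted p = 0.094). The 3 CBF genes are similar neighbours, and CBF3 overlaps AT4G07385. Their target COR15A had 1030.4, 1909.6 and 2921 rescaled reads at ZT6 and 127, 90.7 and 92 at ZT18 (log2 fold change 4.12 ± 0.41, adjusted p = 4.52e-07), and KIN2 changed by 2.61. GOLS3 (AT1G09350), a galactinol synthase gene, had 96.7, 90.2 and 113 rescaled reads at ZT6 and 0, 0 and 0.902 at ZT18 (log2 fold change 6.34 ± 0.97, adjusted p = 4.27e-05), a ratio of 338 with a 95% counting interval of 60.3 to 13404. COR47 (0.57) and ZAT12 (1.11) were not called. The 2 genes that fell were COR27 and AT4G33980. COR27 (AT5G42900), a night-time repressor of clock genes, went from 279.9, 269 and 236 at ZT18 to 7.87, 8.64 and 12.2 at ZT6 (log2 fold change -4.65 ± 0.27, adjusted p = 1.38e-11). AT4G33980 went from 220.2, 159 and 172 to 1.12, 0 and 10.6 (log2 fold change -5.97 ± 0.90, adjusted p = 5.21e-05).

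Stress genes that respond within minutes were higher in part. Of 13 touch and rapid stress genes, 6 were higher and 0 lower. TCH4, a cell wall enzyme gene, had 1763, 3375 and 5354 rescaled reads at ZT6 and 203, 378 and 226 at ZT18 (log2 fold change 3.61 ± 0.59, adjusted p = 2.37e-04). ZAT10 had 154, 310.0 and 419.9 rescaled reads at ZT6 and 48.9, 81.9 and 37.9 at ZT18 (log2 fold change 2.33 ± 0.57, adjusted p = 0.0050). SZF1 (1.8) and TCH2 (1.66) rose too. For each of these 4 genes replicate 1 was the lowest and replicate 3 the highest of the ZT6 libraries. Of 7 heat shock genes 4 were higher and 0 lower: HSP70 (log2 fold change 3.67 ± 0.30, adjusted p = 4.97e-09), HSP18.2 (2.25), ROF2 (1.72) and HSP90.1 (1.6). In the abscisic acid list NCED3, the rate-limiting enzyme of its synthesis, had 173, 251 and 194 rescaled reads at ZT6 and 32.6, 19.2 and 32.5 at ZT18 (log2 fold change 2.85 ± 0.41, adjusted p = 1.97e-05). PP2CA (0.71, lost without ZT6 replicate 3 (adjusted p = 0.057)) was higher and HAB1 (-0.63, lost without ZT6 replicate 2 or ZT18 replicates 1 or 3 (adjusted p up to 0.11)) lower. HAI2 was called higher (log2 fold change 3.33 ± 1.18, adjusted p = 0.045), a call lost without ZT6 replicates 1, 2 or 3 or ZT18 replicates 1 or 2 (adjusted p up to 0.20).

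The hormone lists differed in how many members were called, beside 22.5% of all genes. Of 15 auxin genes, 6 were higher and 0 lower, SAUR19 (2.01), IAA1 (1.47), SAUR63 (1.4) and IAA17 (0.66) among them. The SAUR19 call was lost without ZT6 replicates 1 or 2 or ZT18 replicate 3 (adjusted p up to 0.077). Without replicate 1 at ZT18, 4 of the 15 were called higher. IAA29 (1.71) and YUC8 (-0.36), at low levels, were not called. Type-A response regulators, which damp cytokinin signalling, had 4 of 8 lower and 0 higher: ARR16 with 79.9, 90.2 and 104 rescaled reads at ZT6 and 814, 562 and 376 at ZT18 (log2 fold change -2.6 ± 0.31, adjusted p = 2.80e-06), ARR8 (-1.11), ARR7 (-0.82, lost without ZT6 replicates 1 or 2 or ZT18 replicates 1, 2 or 3 (adjusted p up to 0.16)) and ARR4 (-0.66, lost without ZT18 replicate 1 (adjusted p = 0.070)). None of 11 JAZ repressor genes was called. JAZ10 had 24.7, 35.5 and 31.8 rescaled reads at ZT6 and 15.4, 23.5 and 46.9 at ZT18 (log2 fold change 0.23 ± 0.85, adjusted p = 0.88). Of 17 jasmonate genes AOS (0.76, lost without ZT6 replicates 1 or 2 or ZT18 replicates 2 or 3 (adjusted p up to 0.15)) and OPCL1 (1.31) were higher and MYC3 (-0.49) and MYC4 (-0.41, lost without ZT6 replicates 1 or 3 or ZT18 replicates 1, 2 or 3 (adjusted p up to 0.16)) lower. LOX2 (log2 fold change -0.79 ± 0.41, adjusted p = 0.18) and VSP2 (log2 fold change 2.04 ± 1.01, adjusted p = 0.16) did not pass the test. Of 17 salicylate genes 4 were higher and 0 lower: WRKY70, with 658, 1084 and 1798 rescaled reads at ZT6 and 159, 145 and 109 at ZT18 (log2 fold change 2.99 ± 0.31, adjusted p = 6.33e-07), NPR3 (0.96, lost without ZT6 replicate 2 (adjusted p = 0.052)), NPR4 (0.66) and ICS1 (0.65, lost without ZT6 replicates 1, 2 or 3 or ZT18 replicate 1 (adjusted p up to 0.25)). PR1, a late marker of salicylate defence, had 2.25, 0 and 2.45 rescaled reads at ZT6 and 0, 0 and 171 at ZT18, so that replicate 3 at ZT18 held nearly all of it. SAG13 had 2.25, 4.8 and 413 rescaled reads at ZT6 and 9.06, 6.97 and 1320.2 at ZT18, high in replicate 3 at both times.

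Growth and water transport genes differed in part. Aquaporins were higher in 8 of 15 and lower in 0. RD28, a plasma membrane aquaporin gene, had 975, 983 and 699.6 rescaled reads at ZT6 and 189, 284 and 350.1 at ZT18 (log2 fold change 1.71 ± 0.23, adjusted p = 1.33e-05), followed by TIP2 (1.55), PIP2A (1.47) and PIP1A (0.95). Without single libraries 5 to 8 were called. Expansin and XTH genes were mixed, EXPA8 (1.38) and TCH4 higher and 4 of 16 lower, among them EXPA1 (-1.15, lost without ZT6 replicate 3 or ZT18 replicate 1 (adjusted p up to 0.065)) and XTH4 (-0.57). Over all genes 11.0% were higher and 11.5% lower. Without replicate 1 at ZT18, 2 of the expansin and XTH list were called lower. None of 11 cell cycle genes was called, but 1 was without ZT18 replicate 2 and 2 were without ZT18 replicate 3, and each had a higher mean at ZT6 and the median was 0.70. KN had 663, 743 and 968 rescaled reads at ZT6 and 222, 536 and 655 at ZT18 (log2 fold change 0.87 ± 0.49, adjusted p = 0.22). Without single libraries its log2 fold change ranged from 0.40 to 1.18, and that of CYCB1;1 from 0.05 to 0.66. For both genes replicate 1 was the lowest ZT18 library, and without it 0 of the 11 were called.

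Several lists gave at most a few calls. Of 9 senescence genes NYC1, chlorophyll b reductase, was lower (log2 fold change -1.03 ± 0.14, adjusted p = 9.37e-06). In autophagy 1 of 11, NBR1 (-0.43), and in iron deficiency 1 of 12, the ferritin gene FER3 (-0.60), were lower. BHLH38, an iron-deficiency regulator, had 0, 0 and 4.89 rescaled reads at ZT6 and 36.2, 6.1 and 0 at ZT18 (log2 fold change -1.83 ± 1.71, adjusted p = 0.49). Amino acid breakdown had ERD5 (-1.47, lost without ZT6 replicate 2 (adjusted p = 0.067)) and ETFQO (-0.40, lost without ZT6 replicate 1 or ZT18 replicates 1 or 2 (adjusted p up to 0.073)) lower among 10. Antioxidant genes had CAT3 (log2 fold change 1.73 ± 0.21, adjusted p = 1.91e-06), CAT1 (0.61) and SAPX (0.48) higher and FSD2 (-0.75) lower among 11. With total-read scaling 2 were called higher and 2 lower, and with deposited scaling 1 and 2. The SAPX call was lost under both scalings and the CAT1 call under deposited scaling. CAT3, a catalase gene, had 40487, 38488 and 29339 rescaled reads at ZT6 and 7926, 12021 and 13043 at ZT18. The clock-controlled RNA-binding gene GRP8 was higher (log2 fold change 1.38 ± 0.23, adjusted p = 1.14e-04), and its relative GRP7 was not called (log2 fold change 0.52 ± 0.31, adjusted p = 0.25).

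Genes often used to normalise expression were not all steady. Of 11 such genes, ACT2 had 9641, 9723 and 7369 rescaled reads at ZT6 and 27908, 20260.1 and 18316 at ZT18 (log2 fold change -1.3 ± 0.19, adjusted p = 1.86e-05), ACT8 was lower as well (log2 fold change -1.06 ± 0.15, adjusted p = 2.43e-05), and GAPC1 was higher (log2 fold change 1.02 ± 0.13, adjusted p = 5.41e-06). ACT7 was called higher (log2 fold change 0.58 ± 0.17, adjusted p = 0.015), a call lost without ZT6 replicate 2 or ZT18 replicate 1 (adjusted p up to 0.090) and under total-read and deposited scaling. PP2AA3 had 969, 1047 and 989.8 rescaled reads at ZT6 and 993, 950.2 and 936 at ZT18 (log2 fold change 0.06 ± 0.10, adjusted p = 0.71), and UBQ10 was not called (log2 fold change 0.27 ± 0.17, adjusted p = 0.27).

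The counts of several lists moved with the scaling or with 1 library. With total-read and with deposited scaling, 4 and 4 starch synthesis genes were called lower (1 here), 4 and 5 starch breakdown genes (2 here), 4 and 6 sucrose genes (3 here) and 5 and 5 sulfate genes (3 here). Photoreceptor genes called lower were 5 and 5 (1 here), autophagy genes 3 and 4 (1 here), senescence genes 2 and 3 (1 here) and salicylate genes 2 and 3 (0 here). Of the 11 abscisic acid genes 3 were called higher here, 6 without ZT6 replicate 1, 5 without ZT18 replicate 3, 1 without ZT6 replicate 3 and 2 without ZT18 replicates 1 or 2. Salicylate genes called higher numbered 2 without ZT6 replicate 2.

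**Figure D4:**
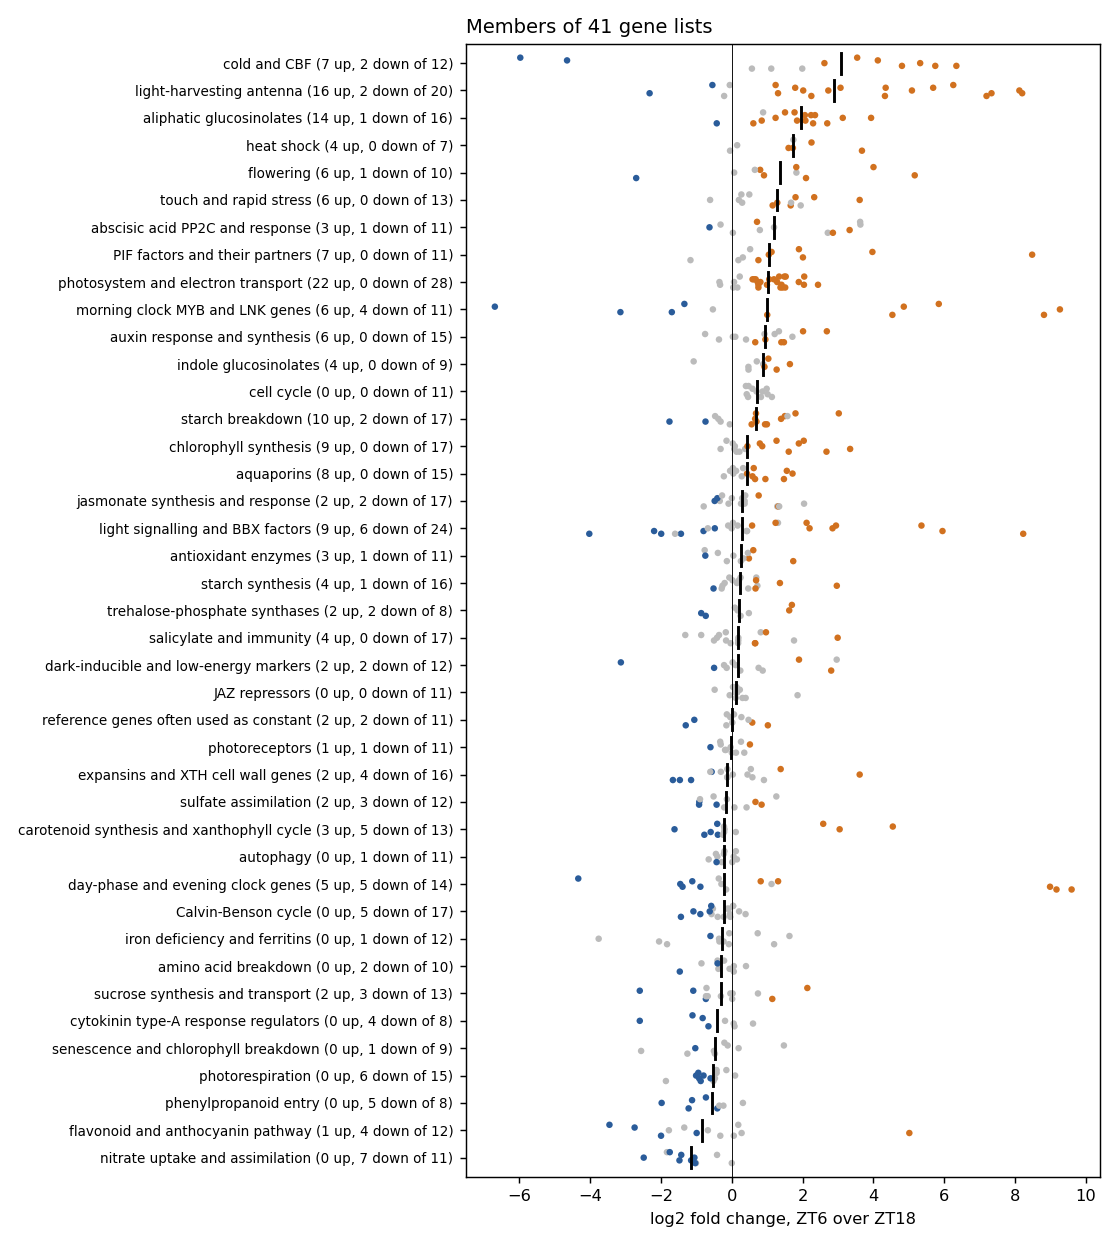
Log2 fold change of ZT6 over ZT18 for each member tested of 41 gene lists, sorted by the list median (black bar), with orange for members called higher, blue for called lower and grey for not called. Cold, antenna and aliphatic glucosinolate lists have the highest medians (3.08, 2.9 and 1.95) and nitrate assimilation the lowest (-1.15).

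Some of the largest changes lay outside the lists. CIPK20 (AT5G45820, chr5:18586870-18588792 in TAIR10.1), a calcium-regulated protein kinase gene, had 1889.8, 2224 and 1691 rescaled reads at ZT6 and 0, 0 and 0 at ZT18 (log2 fold change 10.91 ± 0.46, adjusted p = 3.11e-14). With no read at midnight it was at least 2153-fold higher at midday, against a floor of 3 reads over the group. Its neighbour DOG1 (AT5G45830, chr5:18589418-18591506), known for seed dormancy, had 69.7, 81.6 and 64.4 rescaled reads at ZT6 and 0, 0 and 0 at ZT18 (log2 fold change 6.18 ± 0.82, adjusted p = 7.98e-06), at least 80.1-fold higher. Both lie on the minus strand, with DOG1 upstream. GDPD6, a phosphodiesterase gene that overlaps AT5G08020, had 82.1, 96.9 and 119.9 rescaled reads at ZT6 and 0, 0 and 0 at ZT18 (log2 fold change 6.64 ± 0.85, adjusted p = 4.75e-06), at least 114-fold higher. On the midnight side, GASA1, a gibberellin-responsive peptide gene, fell from 19764, 11632 and 11472 to 1088, 1096 and 1028 (log2 fold change -3.69 ± 0.33, adjusted p = 7.26e-08). BRG2, a RING protein gene, fell from 1333, 1030.4 and 1073 to 142, 118 and 113 (log2 fold change -3.19 ± 0.19, adjusted p = 2.01e-11), and FRO1, of the ferric reductase family, from 29, 27 and 17.1 to 2.25, 0.96 and 0.815 (log2 fold change -3.46 ± 0.63, adjusted p = 3.50e-04). The immunity genes IOS1 (log2 fold change -3.18 ± 1.04, adjusted p = 0.030) and MLO12 (log2 fold change -3.7 ± 1.14, adjusted p = 0.022) were lower from low levels, the IOS1 call being lost without ZT6 replicates 1, 2 or 3 or ZT18 replicates 2 or 3 (adjusted p up to 0.13) and the MLO12 call without ZT6 replicate 2 or ZT18 replicates 2 or 3 (adjusted p up to 0.14).

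Short promoter sequences were read for the genes with the largest changes, because evening and light genes are known to carry short elements that clock and light factors bind. The evening element, AAATATCT on either strand, is bound by CCA1, LHY and RVE proteins, and the G-box, CACGTG, by bHLH factors such as the PIFs and by bZIP factors such as HY5. In the 250 bases before the annotated start, 5 of the 15 named genes with the largest falls held an evening element, and 0 of the 15 with the largest rises. A G-box was found in 4 of the 15 risers and 3 of the 15 fallers. Of all 19492 promoters read, 5.02% held an evening element and 7.33% a G-box in the same 250 bases. The G-box share was 10.6% among genes called higher and 6.13% among genes called lower. The evening elements of 4 fallers lay 28 to 47 bases before the start. Each is shown 5′ to 3′ on the gene's strand with 20 bases on either side and the element in capitals, which reads AGATATTT where it lies on the opposite strand.
BOA (chr5:24003825-24003872, plus strand): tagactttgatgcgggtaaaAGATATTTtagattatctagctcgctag
MYB111 (chr5:20001587-20001634, minus strand): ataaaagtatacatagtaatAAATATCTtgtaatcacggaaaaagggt
FRO1 (chr1:214083-214130, plus strand): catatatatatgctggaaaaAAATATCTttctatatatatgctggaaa
GASA1 (chr1:28442436-28442483, minus strand): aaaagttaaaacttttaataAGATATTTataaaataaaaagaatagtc

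For the risers the G-boxes are shown in the same way, PRR9 with its whole window because it held a pair of them, beginning 244 and 172 bases before the start.
PRR9 (chr2:19232357-19232606, plus strand): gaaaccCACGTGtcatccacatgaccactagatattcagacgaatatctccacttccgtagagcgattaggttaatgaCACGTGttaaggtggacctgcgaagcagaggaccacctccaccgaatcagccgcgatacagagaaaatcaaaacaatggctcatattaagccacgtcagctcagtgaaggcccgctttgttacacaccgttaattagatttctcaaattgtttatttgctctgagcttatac
PRR7 (chr5:642206-642251, minus strand): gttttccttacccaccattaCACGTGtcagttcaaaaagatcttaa
LHCB2.3 (chr3:10255798-10255843, plus strand): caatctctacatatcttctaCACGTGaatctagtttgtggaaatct
GOLS3 (chr1:3019523-3019568, plus strand): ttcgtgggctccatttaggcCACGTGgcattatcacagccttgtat
The fallers with a G-box were RVE2, LHY and BOA.
RVE2 (chr5:14753226-14753271, minus strand): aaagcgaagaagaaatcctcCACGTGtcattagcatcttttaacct
LHY (chr1:37926-37971, minus strand): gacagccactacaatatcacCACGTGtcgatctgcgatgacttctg
BOA (chr5:24003781-24003826, plus strand): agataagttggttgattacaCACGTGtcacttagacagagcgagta
Coordinates and bases are those of RefSeq assembly TAIR10.1. A match is a description of the letters and not a bound site.

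Over all genes the shares went partly the other way. In the window from 250 bases before to 50 after the start, 6.00% of 19492 promoters held the evening element, 9.87% of those of genes higher at midday and 6.08% of those of genes lower at midday. The G-box was held by 8.77% of all, 12.8% of higher and 7.72% of lower genes. The telobox, AAACCCTA, known from promoters of ribosomal protein genes, was held by 5.63% of all, 10.6% of higher and 2.97% of lower genes. The CCA1-binding site, AAAAATCT, was held by 8.05%, 8.85% and 7.59%, and the I-box, GATAAG, known from light-regulated promoters, by 14.8%, 16.2% and 15.9%. Both strands were searched, no motif contains another, and the shares were not tested. In the 250 bases before the start alone, the CCA1-binding site was held by 6.73% of all, 6.72% of higher and 6.70% of lower genes, and the telobox by 3.67%, 5.24% and 2.31%.

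Genes higher at midday mostly had their highest mean there, whereas those lower at midday were highest at dawn or at midnight. Of the 2157 genes higher at ZT6, 1539 had their highest mean of the 4 Col-0 times at ZT6, 314 at ZT0 and 304 at ZT12. Their lowest mean fell at ZT0 for 1007 and at ZT18 for 798. Of the 2253 genes lower at ZT6, 1082 had their highest mean at ZT0, 947 at ZT18 and 224 at ZT12, and 1658 had their lowest mean at ZT6. Over all genes tested, 32.8% had their highest mean at ZT0, 24.5% at ZT6, 24.6% at ZT12 and 18.17% at ZT18. The choice of genes by ZT6 and ZT18 fixes part of this pattern, and 1 of the ZT0 libraries, replicate 2, had the fewest genes detected of the series, 18959.

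The same contrast in jaz4-1 gave 5019 called genes (25.6%). It shares no library with the Col-0 contrast, but both came from the same fit with the same estimate of each gene's spread. The calls in the lines are therefore not independent of each other. JAZ4 itself was too low to check the label, with 5.62, 4.8 and 4.08 rescaled reads at ZT6 and 6.34, 14.8 and 3.61 at ZT18 in Col-0 and 5.45, 0 and 7.79 at ZT6 and 1.81, 2.85 and 1.08 at ZT18 in jaz4-1. Of the genes higher in Col-0, 1562 were also called higher in jaz4-1, which is 72.4% of the Col-0 list and 60.7% of the 2572 of jaz4-1. Of the genes lower in Col-0, 1457 were also called lower, 64.7% of the Col-0 list and 59.5% of the 2447 of jaz4-1. The direction was the same for 2124 of 2157 and 2156 of 2253 genes, and 4 genes were called in opposite directions. The dependence of the difference on the line, tested directly, was called for 10 genes (0.0510%), and 1560 had an unadjusted p under 0.05. Without the 2 libraries with few detected genes, Col-0 ZT0 replicate 2 and jaz4-1 ZT6 replicate 2, 1 gene was called.

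**Figure D5:**
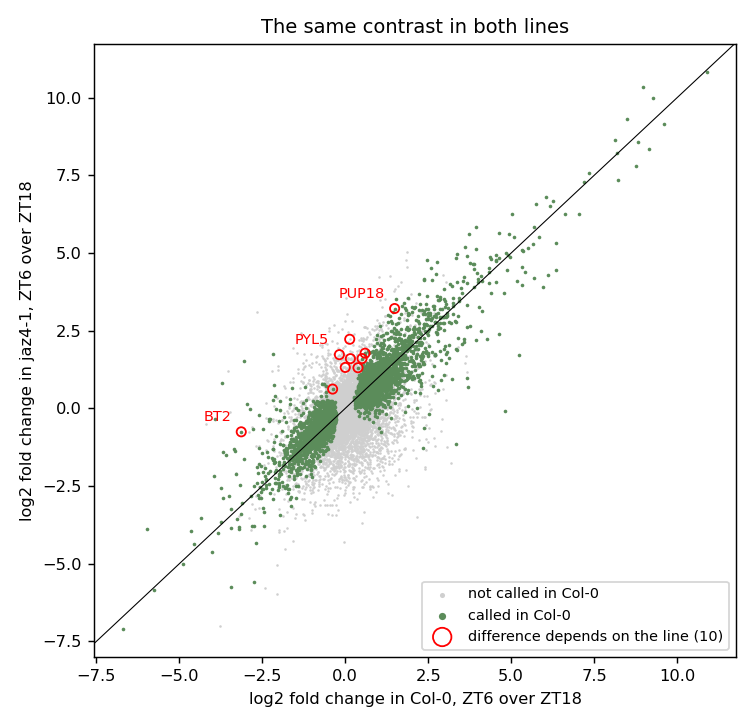
Log2 fold change of ZT6 over ZT18 in jaz4-1 against that in Col-0, 1 point per gene tested, green where called in Col-0, with the line of equal change. Most points lie near the line, and red circles mark the 10 genes whose difference depended on the line, which all lie above it.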

How the data were processed

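RNA-seq libraries of Col-0 rosettes at ZT6 and ZT18 (3 each) were compared. Per the labels' protocols, RNA came from a column kit, libraries from a NEBNext Ultra kit, and Illumina reads were paired. Per the submitters' processing notes, HISAT2, featureCounts and the TAIR10 build were used, with versions and settings not given in the sources used here. Whether the kit kept strand is not given either, so reads of overlapping genes cannot be told apart; 56 of the 218 called genes named here overlap another annotated gene.

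The deposited table holds 24503 genes. Its unit is a signal, although the file headers name RPKM: every deposited value equals some number of reads times a constant of its library, and 100% of the recovered numbers were whole to a tolerance of 0.001 reads (largest distance 6.02e-05). The authors' deposited scaling was set separately at each time, which offsets ZT6 against ZT18 by -0.21 log2 units, so the recovered reads were rescaled with median-of-ratios factors over all 24 libraries. Genes were filtered with filterByExpr (minimum count 10, minimum total 15), and the trend method of limma (version 3.58.1, in R 4.3.3), with its robust option, was applied to log2(rescaled reads + 1) of all 24 libraries with a coefficient for each of 8 groups. That left 16 residual degrees of freedom, and the median prior was 6.21. Fold changes are on that scale, which understates changes of low genes. Scripts were tested on simulated data. Counting intervals (exact binomial, 95%) and floors of 3 reads per group cover counting error only. The p-values set differences against the spread between pools of rosettes. That spread was estimated over all 8 groups of 3 libraries and the prior, not from the Col-0 ZT6 and ZT18 libraries alone.

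The contrast, the 45 gene lists and the tests were chosen with earlier results of these data known. The rule for named genes took the 15 largest and 15 smallest changes among called genes with a symbol, at least 10 rescaled reads and no overlap, up to 4 called members of each list, the 5 called genes per direction with the most reads per kilobase of exon, and 9 clock genes. Other members were named after their values were seen, to complete a count or for context. Alternatives were TMM, total-read and deposited scaling, pseudocounts of 0.5 and 5, no filter or a mean of at least 50, edgeR 4.0.16, DESeq2 1.42.0, limma-voom, fewer libraries, a replicate block and leaving out each library. In all, 24297 identifiers matched RefSeq's annotation of TAIR10.1. Members of lists without a row in the table were not analysed here. The promoter sequence of 1 gene with a large fall is not reported here.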

Additional observations from a re-analysis of the deposited data

Results flagged for a closer look

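The difference between ZT6 and ZT18 depended on the line for 10 genes (limma, adjusted p under 0.05 for the Col-0 change minus the jaz4-1 change), and in all 10 the change in Col-0 was the more negative. BT2, a BTB and TAZ domain protein gene of the dark-inducible list, had 4606, 4903 and 5680.3 rescaled reads at ZT6 and 9831, 6590.3 and 9511 at ZT18 in jaz4-1, beside 637, 991 and 1583 and 12059.5, 8382 and 6699 in Col-0. Its log2 fold change was -3.13 in Col-0 and -0.75 in jaz4-1, a difference of -2.38 ± 0.41 (adjusted p = 0.037). PYL5, an abscisic acid receptor gene, had 615, 663 and 842 at ZT6 and 219.9, 167 and 253 at ZT18 in jaz4-1, beside 209, 262 and 247 and 293, 257 and 259.9 in Col-0, a difference of -1.91 (adjusted p = 0.046). PUP18, of the purine permease family, rose in both lines, by 1.49 and 3.21, a difference of -1.73 (adjusted p = 0.046). TTL3, a thioredoxin-like protein gene, differed by -1.0, with -0.38 in Col-0 and 0.62 in jaz4-1. The O-fucosyltransferase gene AT2G44500 differed by -2.09, and its ZT6 values were 831, 1002 and 1053 in jaz4-1 and 209, 275 and 298 in Col-0. The other 5 were AT5G23130 (-1.45), AT2G34510 (-1.32), AT1G49840 (-1.18), AT1G27100 (-1.1) and AT4G02540 (-0.93). One of the jaz4-1 libraries at ZT6, replicate 2, had few genes detected, 19151, and without it and the Col-0 library at ZT0 with few genes, AT1G49840 alone was called. The 10 genes were each called in 0 to 4 of 12 fits that left out 1 library. Leaving out jaz4-1 ZT6 replicate 2 alone gave 1 called gene, and leaving out jaz4-1 ZT6 replicate 1 or 3 gave 6 and 0. Why the counts changed was not tested.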

How the results depend on the processing

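The 2157 higher and 2253 lower genes were within 1.5 times of these counts under TMM (2095 and 2303), edgeR (2173 and 2376), DESeq2 (2556 and 2639), limma-voom (2498 and 2481), both pseudocounts, both filters, only the 6 or the 12 Col-0 libraries, and the fit lacking Col-0 ZT0 replicate 2 and jaz4-1 ZT6 replicate 2. They were outside under total-read scaling (1277 and 3880) and deposited scaling (1401 and 4832), which shift the median gene by -0.16 and -0.21 log2 units. Leaving out 1 Col-0 library gave 1476 to 2067 higher and 1369 to 2153 lower genes, the fewest without ZT18 replicate 1. The count of 1369 lower genes in that fit was also outside 1.5 times. With a replicate block 2242 were higher and 2307 lower, and 13 genes depended on the line. The 10 genes that depended on the line became 120 with DESeq2, 1 in the fit lacking those 2 libraries, and 0 to 11 without single libraries, with 10 under TMM, 9 under edgeR and 12 under limma-voom. No called named gene changed sign under any alternative, and 179 of 218 stayed called without each of the 6 libraries in turn. Deviations from the group means correlated at 0.139, 0.0418 and 0.267 between ZT6 and ZT18 libraries of the same number. ZT6 replicates 1 and 3 correlated best with their own number, and ZT6 replicate 2 with ZT18 replicate 1 (0.128). Whether the numbers pair the libraries was thus not settled, and the main fit did not pair them. In the 250 bases before the start alone the evening element was held by 5.02% of all, 8.11% of higher and 5.10% of lower genes. With 3 libraries per group, differences of genes at low reads were often not detectable.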

Other observations

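Families grouped by the descriptions and domain names in the deposited table, and chosen after their values were seen, add to the lists above; they carry no test. Of 194 cytosolic ribosomal protein genes, 82 were higher at midday and 2 lower, with a median log2 fold change of 0.48, beside 11.0% and 11.5% of all genes. AT1G15250, which encodes protein L37-1 of the large subunit, went from a mean of 223 to 515 rescaled reads (log2 fold change 1.22 ± 0.20, adjusted p = 9.50e-05). The telobox was held by 47.9% of ribosomal protein promoters, and by 9.20% of those of other genes higher at midday, from 250 bases before to 50 after the start, and by 18.6% and 4.92% in the 250 bases before the start alone. Of 62 DEAD-box RNA helicase genes, many of them ribosome biogenesis factors, 21 were higher and 0 lower, STRS2 by 1.02. Mitochondrial import genes had 14 of 28 higher and 1 lower, TIM13 by 1.34, and HSP70-family chaperones 9 of 17 and 0, including the endoplasmic reticulum chaperone genes BIP1 (0.78) and BIP2 (0.78).

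The families below had more members lower than higher at midday, beside 11.5% lower and 11.0% higher among all genes. TIR-domain receptor genes had 19 of 78 lower at midday and 5 higher, RPS4 by -1.33. Cyclic nucleotide-gated channel genes had 5 of 16 lower and 0 higher, CNGC10 by -2.55 and CNGC4 by -1.08, and calcium-transporting ATPases 5 of 12 and 0, ACA8 by -1.54. DETOXIFICATION transporters had 13 of 41 lower and 4 higher. GRAS factors, the family of the DELLA growth repressors, had 11 of 31 lower and 2 higher. SCL3 was lower (-1.18), and of the DELLA genes RGL1 was lower (-1.06) and RGA1 higher (0.60). CCT-domain genes had 10 of 26 lower and 5 higher, COL5 (4.35) and COL2 (1.84) being higher and BBX8 lower (-2.29).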
